A study of Mus musculus with 14 samples.

Results

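The genes described here encode the enzymes of haem synthesis and the mitochondrial carrier that supplies the pathway: Alas1, Alas2, Slc25a38, Alad, Uros, Urod, Cpox, Ppox and Fech. They were chosen by name for their place in the pathway, and 9 of 9 were matched by symbol among the 55335 genes of the count table. In the filter on low counts 9 of 9 passed, among the 21509 genes that were tested.

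RNA was sequenced from bone marrow cells of mice that carry Cdh5 CRE and Rosa26 TdTomato, in which Cre recombinase under the promoter of Cdh5, the gene of VE-cadherin, switches on a red fluorescent protein. Recombination is permanent, so cells descended from a Cdh5-expressing cell keep the reporter. Every group had this genotype and was sorted as Lineage-, CD45- and TdTomato+, and the treated mice were harvested 8 days after treatment. The groups were untreated controls (4 libraries), total body irradiation of 500 cGy from a caesium source (TBI, 5 libraries), 20 µCi of radioimmunotherapy with a non-targeted IgG (IgG RIT, 3 libraries) and 20 µCi of CD45-targeted radioimmunotherapy (CD45 RIT, 2 libraries). Radioimmunotherapy delivers a radionuclide, here astatine by the title of the series, on an antibody. CD45 is a surface protein of white blood cells. The labels used here do not say whether libraries of a group came from separate mice, so p-values measure the spread between these libraries, which may be technical.

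Haem synthesis starts in the mitochondrion, where aminolevulinate synthase joins glycine to succinyl-CoA in the rate-limiting step. Alas1 encodes the form found in all tissues, which haem itself represses, and Alas2 the form of red cell precursors; Slc25a38 brings glycine into the mitochondrion. Alad, Uros and Urod then act in the cytosol, where the ring is built, and Cpox, Ppox and Fech complete it in the mitochondrion, with Fech inserting the iron. In marrow most haem is made by erythroblasts for haemoglobin.

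Total counts ranged from 16412779 to 31077588 per library, and the floor of 3 counts corresponded to 0.0786 to 0.215 CPM. CPM of single genes are counts per 1000000 counts of the library size scaled by TMM, edgeR's trimmed mean factors, whereas summed levels of marker lists are per 1000000 counts of the unscaled total. Pearson correlations of log2 CPM between libraries of a group were 0.906 to 0.944 in untreated, 0.911 to 0.979 in TBI, 0.917 to 0.922 in IgG RIT and 0.673 between the 2 CD45 RIT libraries. The endothelial label was not matched by its defining gene: Cdh5 had 0 to 6 counts in every library. Other endothelial markers varied. Pecam1 had 894 to 1957 counts in untreated, 44 to 820 in TBI, 72 to 171 in IgG RIT and 6 and 4 in CD45 RIT libraries. Kdr had 2390 counts in CD45 RIT replicate 2 and 0 to 70 elsewhere, and Emcn 0 to 108. Ptprc, the gene of CD45, had 1578 to 3273 counts in untreated libraries and 1 to 1424 in treated ones. The summed level of a 20-gene endothelial list was 203 to 249 CPM in untreated, 85.3 to 182 in TBI, 75.3 to 83.6 in IgG RIT and 97.1 to 364 in CD45 RIT libraries. A list of 15 erythroid genes without globins summed to 2871 to 4423, 7551 to 25743 and 23270 to 31918 CPM in untreated, TBI and IgG RIT, and to 13153 and 460 CPM in CD45 RIT replicates 1 and 2. The part of these cell types in the results below was not tested, and in bulk RNA fewer cells of a type and less RNA per cell cannot be told apart. TBI replicate 6 stood apart from the other TBI libraries, and its library number, 10, adjoins those of the RIT libraries (11 to 16), while the other TBI and the untreated libraries have numbers under 10. Values without it are given where leaving it out changed a call, and also where it moved a change after TBI by over 1.5 times.

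The Alas2 gene lies on GRCm38 chrX:150547375-150570638 on the forward strand, Cpox on chr16:58670292-58717636 on the forward strand and Urod on chr4:116989965-116994413 on the reverse strand. Promoter sequences of 8 genes, with 11 annotated starts, were taken from RefSeq on GRCm38.p6, and the 250 bases before each start were searched on both strands for the site bound by GATA factors, searched for with the spelling AGATAA, the spelling AGATAG, the spelling TGATAA and the spelling TGATAG. Such a match was present before 3 of 11 starts (Alas2, Cpox and the second start of Uros) and in 26.5% of 32851 promoters. That 26.5% is near the share among these starts. Fech was not among the 8 genes searched. Alas2 and Cpox are shown as genes with a match and Urod as a gene without. These 3 genes were called higher after IgG RIT, as was Ppox, which holds no match. Any tie between matches and levels was not tested. The lines give the part of each window outside annotated exons, 5′ to 3′ on the strand of the gene, with matches to the GATA site in capitals.

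Alas2, chrX:150547167-150547374, forward strand: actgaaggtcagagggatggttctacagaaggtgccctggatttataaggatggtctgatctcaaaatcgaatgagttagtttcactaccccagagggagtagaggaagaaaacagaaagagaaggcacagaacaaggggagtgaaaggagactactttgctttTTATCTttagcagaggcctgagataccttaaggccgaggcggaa

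Cpox, chr16:58669958-58670207, forward strand: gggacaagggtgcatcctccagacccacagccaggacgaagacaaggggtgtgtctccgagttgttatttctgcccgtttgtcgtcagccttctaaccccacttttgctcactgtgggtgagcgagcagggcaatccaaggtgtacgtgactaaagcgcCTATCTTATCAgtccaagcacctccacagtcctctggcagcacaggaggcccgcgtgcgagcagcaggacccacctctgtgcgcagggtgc

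Urod, chr4:116994414-116994663, reverse strand: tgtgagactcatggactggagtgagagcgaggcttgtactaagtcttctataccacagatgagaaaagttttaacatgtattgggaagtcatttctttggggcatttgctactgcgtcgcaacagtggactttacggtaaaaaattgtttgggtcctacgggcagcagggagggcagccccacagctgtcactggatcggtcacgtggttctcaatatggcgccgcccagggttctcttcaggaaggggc

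The Alas2 match read TTATCT, the reverse complement of AGATAA, and lay 86 to 81 bases before the start. In Cpox the matches CTATCT and TTATCA, at 91 to 86 and 86 to 81 bases before the start, shared a base. The Alas2 window also held 4 matches to CCNCNCCC, a site of KLF factors present in 45.9% of promoters. They lay 42 to 19 bases before the start, in the stretch not printed, and the first 3 overlapped. It held 1 TATAAA, on the reverse strand, present in 12.4% of promoters. The palindromic site of NRF1 was found before the second start of Alas1, 195 to 186 bases upstream, and in 0.782% of promoters. A match describes these letters in these windows only.

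At the first step, Alas1 was lower and Alas2 higher in every treated library than in any untreated one. Alas1 was measured at 224, 154, 231 and 176 CPM in untreated replicates 1 to 4, at 34.1, 42.0, 51.1, 36.3 and 11.3 CPM in TBI replicates 1, 3, 4, 5 and 6, at 24.8, 22.8 and 26.2 CPM in IgG RIT replicates 1 to 3, and at 41.0 and 122 CPM in CD45 RIT replicates 1 and 2. The highest treated library, CD45 RIT replicate 2, was below the lowest untreated one. Alas1 fell by 2.49 ± 0.39 on the log2 scale after TBI (SE; edgeR quasi-likelihood test with Benjamini-Hochberg adjusted p = 0.00486) and fell by 3.00 ± 0.49 after IgG RIT (adjusted p = 0.00337). After CD45 RIT its change was -1.27 ± 0.53 and did not pass (adjusted p = 0.0813, and 0.0238 without TBI replicate 6 or 0.00981 without CD45 RIT replicate 2, where the change was -2.30). Without TBI replicate 6, the change after TBI was -2.26 (adjusted p = 0.00237).

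Alas2 was measured at 233, 124, 311 and 226 CPM in the untreated libraries, at 741, 1118, 677, 1214 and 6880 CPM in the TBI libraries, at 6720, 4956 and 4994 CPM in the IgG RIT libraries and at 11306 and 2235 CPM in the CD45 RIT libraries, each in replicate order. No treated library overlapped the untreated ones, and TBI replicate 6 was near the IgG RIT libraries rather than the other 4 TBI libraries. Alas2 rose by 3.25 ± 0.77 (log2, SE) after TBI (edgeR adjusted p = 0.035), by 4.64 ± 0.86 after IgG RIT (adjusted p = 0.00537) and by 4.92 ± 0.90 after CD45 RIT (adjusted p = 0.00165). Without TBI replicate 6 the rise after TBI was 2.07 (adjusted p = 0.0267). The call after TBI was lost when untreated replicate 1, 2, 3 or 4 or TBI replicate 3 or 5 was left out, with adjusted p between 0.0502 and 0.113. DESeq2 gave Alas2 no adjusted p. Alas2 shares 311 exon bases, 12.9% of its exonic length, with Apex2 on the opposite strand, and Apex2 had 1434 to 34211 counts. The sources used here do not state whether strand was used in counting, so reads from that stretch are uncertain.

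**Figure D1:**
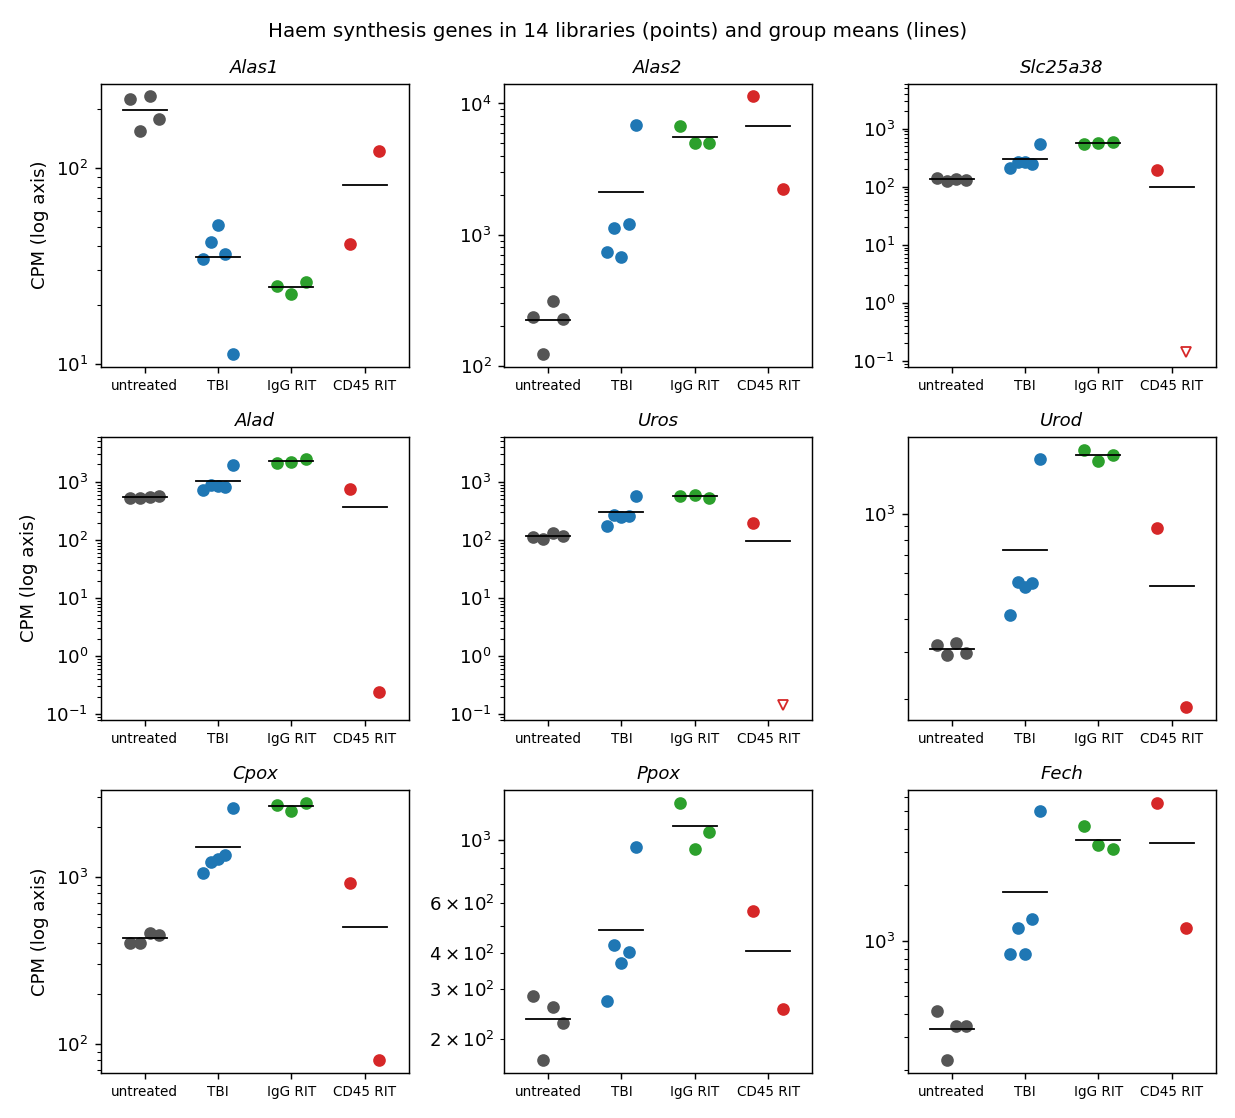
Level of each gene in each library, in CPM on TMM-scaled library sizes (log axis), by group; filled points are libraries, lines are group means, and open triangles mark libraries with 0 counts, drawn at the floor of 3 counts. Alas1 sits highest in the 4 untreated libraries, the other genes lowest there or in a CD45 RIT library, and in 8 of 9 panels TBI replicate 6 lies above the other TBI points.

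Per transcript length, Alas1 made up 35.5 ± 5.49% (SD, n = 4) of Alas1 and Alas2 together in untreated libraries. Its share was 1.76 to 4.33% in TBI replicates 1, 3, 4 and 5 and 0.0981% in TBI replicate 6. In IgG RIT libraries it was 0.221 to 0.313%, and in CD45 RIT replicates 1 and 2 it was 0.217 and 3.17%. Put as a ratio, Alas2 stood at 1.34 to 2.25 times the per-length level of Alas1 in untreated libraries, at 22.1 to 55.9 times in the first 4 TBI libraries, and at 1019 times in TBI replicate 6. The IgG RIT ratios were 318 to 451, and the CD45 RIT ratios were 460 and 30.5. The Alas1 share did not overlap between untreated and any treated group, which follows from the levels of both genes given above. For TBI against untreated, a two-sided exact permutation test gave p = 0.0159, the smallest possible (adjusted 0.0476 over 6 ratio comparisons). As the groups were seen not to overlap before the test, this p was fixed beforehand and adds no support. For IgG RIT the exact permutation test gave p = 0.0571 (adjusted 0.0857), the smallest possible, so it could not pass. For CD45 RIT the exact permutation test gave p = 0.133 (adjusted 0.133), the smallest possible, so it could not pass either.

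Slc25a38, the glycine carrier, was at 143, 128, 135 and 133 CPM in untreated libraries, at 208, 268, 265, 245 and 541 CPM in TBI libraries and at 539, 575 and 594 CPM in IgG RIT libraries. The 3 groups' values did not overlap except that TBI replicate 6 lay within the IgG RIT range. In CD45 RIT replicate 1 it was at 196 CPM, and in replicate 2 at 0 counts, where the floor is 0.144 CPM. Its fitted change was 1.18 ± 1.02 after TBI (edgeR adjusted p = 0.635), 2.08 ± 1.14 after IgG RIT (adjusted p = 0.225) and -0.46 ± 1.31 after CD45 RIT (adjusted p = 0.80), none of which passed. The large errors came with a spread that is estimated over all 14 libraries: in the fit without both CD45 RIT libraries the errors were 0.28 and 0.31, and the changes of 1.33 after TBI and 2.27 after IgG RIT passed (adjusted p = 0.00859 and 0.00042).

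Alad, which joins aminolevulinate molecules into porphobilinogen, was at 535, 526, 548 and 579 CPM in untreated, 713, 872, 868, 826 and 1965 CPM in TBI and 2108, 2251 and 2453 CPM in IgG RIT libraries. All treated libraries of both groups were above all untreated libraries. CD45 RIT replicate 1 had 751 CPM and replicate 2 had 5 counts, or 0.241 CPM. The fitted changes of Alad were 0.94 ± 1.02 after TBI, 2.05 ± 1.15 after IgG RIT and -0.54 ± 1.33 after CD45 RIT, with edgeR adjusted p of 0.731, 0.235 and 0.767. The change of Alad after TBI was 0.58 without TBI replicate 6 (adjusted p = 0.912). Without both CD45 RIT libraries, Alad was higher by 1.10 ± 0.30 after TBI (adjusted p = 0.027) and by 2.25 ± 0.33 after IgG RIT (adjusted p = 0.000579).

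Uros, which closes the porphyrin ring in the right isomer, was at 115, 104, 129 and 116 CPM in untreated, 175, 271, 246, 260 and 575 CPM in TBI, 584, 597 and 522 CPM in IgG RIT, and 193 CPM and 0 counts in the CD45 RIT libraries. Again the TBI and IgG RIT values lay above the untreated ones, with none of the changes called in the fit of all libraries (1.40, 2.29 and -0.27, edgeR adjusted p = 0.557, 0.188 and 0.889). Without both CD45 RIT libraries, Uros was higher by 1.56 after TBI (adjusted p = 0.00813) and by 2.48 after IgG RIT (adjusted p = 0.000506).

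Urod, which trims the side chains of the ring in the last cytosolic step, was at 319, 293, 325 and 298 CPM in untreated, 417, 555, 529, 548 and 1623 CPM in TBI, 1758, 1592 and 1670 CPM in IgG RIT and 886 and 186 CPM in CD45 RIT libraries. It rose by 2.44 ± 0.51 after IgG RIT (edgeR adjusted p = 0.00862). After TBI its value was 1.25 ± 0.45 (adjusted p = 0.155) although no TBI library overlapped the untreated ones, and 0.73 without TBI replicate 6 (adjusted p = 0.337). After CD45 RIT it was 0.80 ± 0.56 (adjusted p = 0.274). The CD45 RIT libraries lay on either side of the untreated range, and without CD45 RIT replicate 1 the value turned to -0.74.

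Cpox, the first of the mitochondrial finishing enzymes, was at 405, 400, 460 and 449 CPM in untreated, 1050, 1232, 1283, 1348 and 2591 CPM in TBI, 2680, 2476 and 2775 CPM in IgG RIT and 926 and 80.4 CPM in CD45 RIT libraries. The 4 lower TBI libraries formed a level of their own between the untreated and the IgG RIT libraries. Cpox rose by 2.62 ± 0.56 after IgG RIT (edgeR adjusted p = 0.00977). After TBI it was 1.81 ± 0.51 (adjusted p = 0.0684), and 1.96 ± 0.27 without both CD45 RIT libraries (adjusted p = 0.00142). After CD45 RIT its value of 0.23 (adjusted p = 0.789) became -0.52 without scaling factors, and it was called lower, at -2.43 (adjusted p = 0.000741), without CD45 RIT replicate 1. In that fit the CD45 RIT group is a single library, which is assumed to vary like the other groups.

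Ppox, the oxidase of the step before iron is added, was at 284, 169, 260 and 228 CPM in untreated, 272, 428, 371, 406 and 949 CPM in TBI, 1352, 931 and 1067 CPM in IgG RIT and 562 and 255 CPM in CD45 RIT libraries. It was the single gene of the 9 whose TBI libraries overlapped the untreated ones, through TBI replicate 1. Ppox rose by 2.25 ± 0.40 after IgG RIT (edgeR adjusted p = 0.00467), against 1.04 ± 0.36 after TBI (adjusted p = 0.126) and 0.80 ± 0.44 after CD45 RIT (adjusted p = 0.171). Its change after TBI was 0.65 without TBI replicate 6 (adjusted p = 0.234). It shares 791 exon bases, 17.5% of its exonic length, with B4galt3 on the opposite strand, which had 872 to 2015 counts.

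Fech, ferrochelatase, was at 414, 227, 347 and 345 CPM in untreated, 849, 1165, 846, 1302 and 4998 CPM in TBI, 4152, 3274 and 3110 CPM in IgG RIT and 5555 and 1171 CPM in CD45 RIT libraries. All treated libraries exceeded all untreated ones, as with Alas2, and CD45 RIT replicate 1 had the highest level of any library. Fech rose by 2.46 ± 0.60 after TBI (edgeR adjusted p = 0.0401), by 3.40 ± 0.67 after IgG RIT (adjusted p = 0.00662) and by 3.34 ± 0.70 after CD45 RIT (adjusted p = 0.00375). The rise of Fech after TBI was 1.64 without TBI replicate 6 (adjusted p = 0.0402). Leaving out any untreated library, TBI replicate 3 or 5, or any IgG RIT library ended the call after TBI, with adjusted p from 0.0513 to 0.125, and leaving out CD45 RIT replicate 1 ended the call after CD45 RIT (1.80, adjusted p = 0.0544).

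Counted over the pathway, 3 of 9 genes were called after TBI, Alas2 and Fech higher and Alas1 lower, against 4.31% of all tested genes (0.921% higher and 3.38% lower). Without TBI replicate 6 the count was again 3, against 3.85% of genes. Leaving out untreated replicate 1, 2, 3 or 4, or TBI replicate 3 or 5, left Alas1 as the single call, and leaving out CD45 RIT replicate 1 or 2 gave 8 calls, against 11.3 and 11.8% of genes. Without both CD45 RIT libraries, 9 of 9 were called, 8 of them higher, against 15.6% of genes (8.04% higher and 7.61% lower). The TBI libraries lay wholly above the untreated ones in 7 of 9 genes, against 6.34% of genes, and wholly below in 1, against 12.8%. The median change of the 9 genes was 1.25, beside -0.16 for all tested genes.

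After IgG RIT, 6 of 9 genes were called, with Alas2, Urod, Cpox, Ppox and Fech higher and Alas1 lower, against 16.4% of tested genes (5.75% higher and 10.7% lower). The count stayed at 6 or more whichever library was left out, and without both CD45 RIT libraries it was 9, 8 of them higher, against 37.1% of genes (16.8% higher and 20.3% lower). With a term for library numbers of 10 or more, in which TBI replicate 6 alone separates number from treatment, 0 of 9 were called, against 0.0883% of genes, and Alas2 stood at 1.76 (adjusted p = 0.921); apart from that library, treatment by RIT and library number cannot be told apart. In 8 of 9 genes IgG RIT libraries were wholly above the untreated ones, against 15.6% of genes, and in 1 wholly below, against 27.4%. The median change was 2.29, beside -0.42 for all tested genes.

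After CD45 RIT, 2 of 9 genes, Alas2 and Fech, were called, both higher, against 33.1% of tested genes (14.5% higher and 18.6% lower). In 9 genes, such a count does not set the pathway apart from that background. Without CD45 RIT replicate 1 the count was 5, with Alas2 higher and Cpox, Alad, Uros and Slc25a38 lower, against 48% of genes, and without replicate 2 it was 3, against 30.4% of genes, with Alas2 and Fech higher and Alas1 lower. In each fit without a CD45 RIT library, here and below, the spread comes from the other groups alone. The CD45 RIT libraries were wholly above the untreated ones in Alas2 and Fech, 2 of 9, against 17.5% of genes, and wholly below in Alas1, against 29.8%. The median change was 0.23, beside -0.37 for all tested genes. The 3 comparisons share the untreated libraries. Scaling bears on the background: without scaling factors the median change of all genes moved by -0.12, -0.52 and -0.71 after TBI, IgG RIT and CD45 RIT. The share of calls that were higher went from 21.4 to 17.1%, from 35.0 to 14.5% and from 43.8 to 22.7%. In CD45 RIT against TBI it went from 50.9 to 33.6%. The calls among the 9 genes kept their direction with and without scaling factors.

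**Figure D2:**
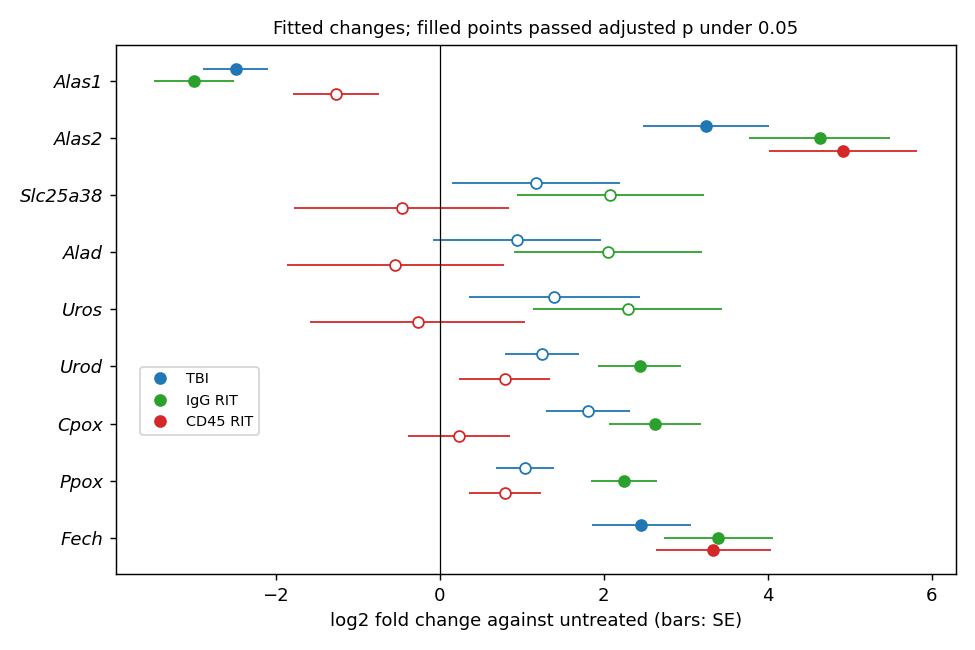
Fitted log2 fold change of each gene against untreated (horizontal axis, bars are SE) after TBI, IgG RIT and CD45 RIT; filled points have an adjusted p under 0.05. Alas1 is left of 0 after all 3 treatments, Alas2 and Fech are filled and right of 0 after all 3, and the CD45 RIT points of Alad, Uros and Slc25a38 lie left of 0 with the widest bars.

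The make-up of the pathway differed between groups when levels were taken per length of the principal transcript (RPKM, counts per kilobase and per 1000000 counts of the unscaled total, so not the TMM-scaled CPM above divided by length). In untreated libraries Alad was highest at 525 ± 10.2 RPKM (SD, n = 4), followed by Urod at 249 ± 17.4, Cpox at 166 ± 10.1, Ppox at 155 ± 34.6 and Alas2 at 132 ± 45.9. The last 3 lay within their spread of each other, and Alas1 (69.3 ± 14.1) and Fech (60.8 ± 14.7), the lowest, did as well. In IgG RIT libraries Alas2 came first at 2269 ± 316 RPKM (n = 3), then Alad at 1523 ± 155 and Urod at 938 ± 2.73, while Alas1 was last at 6.04 ± 0.33. With the deposited gene length, which counts all annotated exons, Alas2 had rank 3 in untreated libraries and rank 1 in each treated group, by group means. In TBI replicates 1, 3 and 4 Alas2 was below Alad on that length, at 365, 552 and 302 against 452, 553 and 497 RPKM. In TBI replicates 5 and 6 it was above, at 598 and 2430 against 522 and 891 RPKM.

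As a share of the summed RPKM of the 9 genes, Alas2 made up 5.45 to 11.1% in untreated libraries. It made up 13.7 to 21.5% in TBI replicates 1, 3, 4 and 5 and 38.4% in TBI replicate 6. The IgG RIT libraries had 30.2 to 36.5%, and the CD45 RIT libraries 65.8 and 68.5%. Alas2 was thus the largest share in both CD45 RIT libraries, as it was in the IgG RIT libraries and in TBI replicate 6. Alad took the opposite course, with 32.1 to 37.9% in untreated, 17.9 to 28.6% in TBI and 18.7 to 24.2% in IgG RIT libraries, and 7.14 and 0.0120% in the CD45 RIT libraries. Fech made up 3.10 to 4.78% in untreated, 5.29 to 8.65% in TBI, 5.82 to 6.98% in IgG RIT and 10.0 and 11.1% in CD45 RIT libraries, so that no treated library fell in the untreated range.

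**Figure D3:**
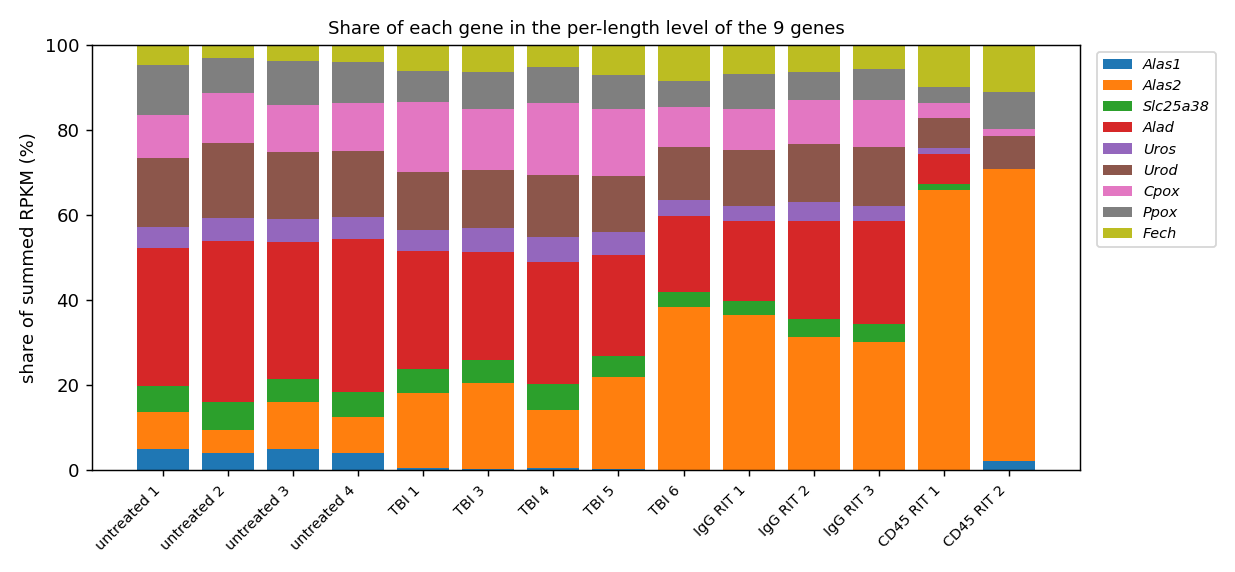
Share of each gene in the summed RPKM of the 9 genes (stacked bars, percent of the sum) in each library. The Alas2 segment widens from 5.45 to 11.1% in the untreated libraries to 30.2 to 36.5% after IgG RIT and 65.8 and 68.5% after CD45 RIT, and TBI replicate 6, at 38.4%, resembles the IgG RIT bars more than the other TBI bars.

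Since erythroid markers moved with the treatments, each gene was also set against the 15 non-globin erythroid genes of the same library. Per 1000 counts of that list, Alas1 had 61.2 ± 7.87 counts in untreated (SD, n = 4), 4.03 ± 2.30 in TBI (n = 5) and 0.776 ± 0.13 in IgG RIT libraries (n = 3). That list was itself higher in TBI and IgG RIT libraries, so this ratio fell further than the CPM of Alas1. Alas2 had 67.7 ± 13.8, 133 ± 54.5 and 172 ± 12.9 counts in the same order, and the lowest TBI library, at 85.7, was above the highest untreated one, at 85.1, by a small margin. On the log2 scale this was 0.92 higher in TBI than in untreated (exact permutation test, two-sided, p = 0.0159, the smallest possible, adjusted 0.0476 over 6 ratio comparisons) and 1.37 higher in IgG RIT (exact p = 0.0571, the smallest possible, adjusted 0.0857). As these groups were also seen not to overlap before the test, its p was fixed beforehand and adds no support. Alad went the other way from Alas2, with 174 ± 32.5, 91.9 ± 19.5 and 72.3 ± 17.2 counts. Its TBI and IgG RIT values did not overlap with untreated. Fech had 103 ± 14.3, 131 ± 22.6 and 109 ± 12.2 counts, values that overlapped. Urod, Ppox, Slc25a38 and Uros also had lower means in TBI and IgG RIT than in untreated libraries, whereas Cpox was at 136 ± 22.1 and 135 ± 33.0 counts in untreated and TBI and 83.3 ± 14.3 in IgG RIT libraries. With globins added to the list, Alas2 had 16.0 to 22.4 counts per 1000 in untreated, 25.1 to 32.0 in TBI and 29.3 to 34.9 in IgG RIT libraries, again without overlap with untreated. Fech, level on the list without globins, had 25.0 to 39.6, 23.3 to 32.4 and 18.2 to 21.5 counts, so that the IgG RIT libraries lay below the untreated ones on the list with globins.

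**Figure D4:**
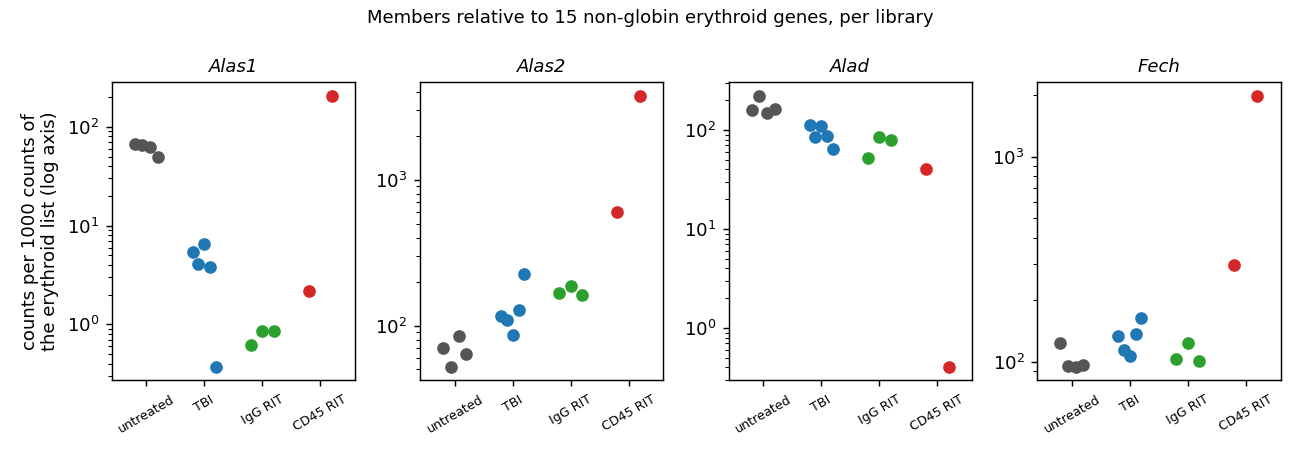
Counts of Alas1, Alas2, Alad and Fech per 1000 counts of 15 non-globin erythroid genes in each library (log axes), by group; each point is a library. Alas1 drops from 49.7 to 67.1 in untreated to 0.621 to 0.859 in IgG RIT libraries, Alas2 lies higher in treated libraries, Fech overlaps between untreated, TBI and IgG RIT, and CD45 RIT replicate 2 is far from the rest in each panel.

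The CD45 RIT libraries differed widely in size on this scale. Alas2 had 604 and 3767 counts per 1000 erythroid counts in replicates 1 and 2, and Fech had 297 and 1974, while the erythroid list itself had 306739 and 12330 counts. In replicate 2, 8 of its 15 genes were above the floor. Globins stayed abundant in both, at 177988 and 45355 CPM, and per 1000 counts of the list with globins Alas2 was at 41.6 and 37.8. Alad, Uros and Slc25a38 were at 5, 0 and 0 counts in replicate 2 and at 12313, 3162 and 3208 in replicate 1. This was not particular to haem genes: of 416 genes with at least 3000 counts in each of the other 13 libraries, 19 (4.57%) had at most 5 counts in CD45 RIT replicate 2, and the same measure gave 0 genes in each of the other libraries. Those count limits were chosen after the values were seen. Beside these values, stromal markers summed to 38940 and 59532 CPM in the CD45 RIT libraries and to 385 to 8218 CPM elsewhere, and macrophage markers to 2527 and 2333 CPM against 25.7 to 208 CPM. Their part was not tested.

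Between the treatments, CD45 RIT differed from IgG RIT in 3 of 9 genes, against 37.7% of tested genes (20.2% higher and 17.5% lower). Alas1 was higher after CD45 RIT by 1.73 ± 0.52 (edgeR adjusted p = 0.0206), and Cpox and Ppox were lower (log2 changes of -2.39 ± 0.73 and -1.45 ± 0.50, adjusted p = 0.022 and 0.0366). Alas2 and Fech, called higher after each treatment, differed by 0.29 ± 0.93 and -0.06 ± 0.76 (edgeR adjusted p = 0.839 and 0.974). These errors leave room for differences of either sign. Without CD45 RIT replicate 2, Alas1 stood at 0.51 (adjusted p = 0.444) and Ppox at -1.22 (adjusted p = 0.169), and 4 genes were called lower, Cpox, Alad, Uros and Slc25a38, against 35% of genes. Without replicate 1, 7 genes were called, against 51.2% of genes. Leaving out IgG RIT replicate 1 left Cpox as the single call, against 31.1% of genes. Urod was called as well without TBI replicate 6 (-1.64, adjusted p = 0.0169), which made 4 calls, against 38.3% of genes. Without IgG RIT replicate 2 Alas1 was not called (adjusted p = 0.0588), and without IgG RIT replicate 3 Ppox was not (adjusted p = 0.0601). The CD45 RIT libraries were wholly above the IgG RIT ones in 1 of 9 genes, Alas1, against 21.7% of genes, and wholly below in 6, all but Alas1, Alas2 and Fech, against 29.6%.

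IgG RIT and TBI differed in 0 of 9 genes by edgeR, against 0.242% of tested genes (0.0697% higher and 0.172% lower). Only in Alad were the IgG RIT libraries wholly above the TBI ones, against 8.37% of genes, and in 0 of 9 were they wholly below, against 8.44%. At an unadjusted p under 0.05 there were 2 genes, Urod and Ppox, against 18.5% of tested genes, and DESeq2 called 1, Ppox, against 9.69%. Without TBI replicate 6, 4 genes were higher after IgG RIT, against 9.44% of genes (3.76% higher): Alas2 by 2.57 (adjusted p = 0.00814), Urod by 1.71 (0.0157), Ppox by 1.60 (0.00623) and Fech by 1.76 (0.0227). Without both CD45 RIT libraries 3 genes were higher, Alad (1.15), Ppox (1.23) and Slc25a38 (0.94), against 12.6% of genes (5.1% higher and 7.5% lower). Set against TBI replicate 6 alone, with no test, IgG RIT means of log2 CPM differed by -0.52 to 0.22 in 8 genes and by 1.12 in Alas1. CD45 RIT and TBI differed in 0 of 9 genes by edgeR, against 38.6% of tested genes (19.6% higher and 19% lower), with Alas1 and Cpox at an unadjusted p under 0.05 (2 of 9, against 48.9%). DESeq2 called the same 2 genes, Alas1 higher and Cpox lower, against 46.3% of genes. The CD45 RIT libraries were wholly below the TBI ones in Cpox and Slc25a38, against 27.6% of genes, and wholly above in 0 of 9, against 18.2%. Without CD45 RIT replicate 1, 6 of 9 were called, against 50.9% of genes. Without TBI replicate 6, Alas1 (1.00), Alas2 (2.85) and Fech (1.69) were called higher after CD45 RIT, against 38% of genes (19.1% higher).

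Over the 14 libraries, the genes whose log2 CPM ran closest to Alas2, of 8050 compared, included Apex2 (Pearson r = 0.996), Hbb-bs (0.996), Hba-a1 (0.992) and Fam214b (0.990). Apex2 overlaps Alas2, and Hbb-bs and Hba-a1 are adult globin genes. Fech came sixth, at 0.989. Apart from Alas1, the other pathway genes lay between 0.103 (Alad) and 0.857 (Ppox), and their Spearman correlations between 0.604 (Slc25a38) and 0.824 (Ppox). Without the CD45 RIT libraries, the Pearson r of these genes was 0.962 (Alad) to 0.987 (Uros), and that of Fech was 0.995. Alas1 was at -0.80 with Alas2, and the genes closest to it were Spns2 (0.962), Gng12 (0.961), Hk3 (0.958), Edem2 (0.948) and Adgrg3 (0.946). These correlations describe libraries that share group, depth and composition.

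Genes around the pathway were taken from lists chosen by role. Among 16 carriers of haem precursors, iron and glycine, 1 was called after TBI, 8 after IgG RIT and 8 after CD45 RIT, beside 4.31, 16.4 and 33.1% of all tested genes. The count after TBI is near that background. Slc25a37, mitoferrin, the iron carrier of the erythroid mitochondrion, rose by 2.48 ± 0.58, 3.69 ± 0.64 and 2.73 ± 0.66 after TBI, IgG RIT and CD45 RIT (edgeR adjusted p = 0.0317, 0.00419 and 0.00831). After IgG RIT 7 carriers were higher, led by the glycine transporter Slc6a9 (3.80 ± 0.79) and Slc25a37, and Pgrmc1, a partner of ferrochelatase, was lower (-0.86 ± 0.24). After CD45 RIT 5 were higher, led by Slc25a39 (2.87), a mitochondrial glutathione carrier, and 3 lower, led by the ferrireductase Steap3 (-4.08). Steap3 was at 0 and 4.63 CPM in the CD45 RIT libraries, so the size of its fall is uncertain. The list's median change was 1.05, 2.15 and 0.82 in the same order.

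Of 14 iron-sulphur cluster assembly genes, 12 were tested. After TBI no gene passed by edgeR, and 4 of 12 had an unadjusted p under 0.05 (Glrx5 0.95, Isca1 1.22, Iba57 1.28 and Fdx1 -0.87), beside 18.2% of all tested genes. The calls numbered 7 after IgG RIT (5 higher and 2 lower) and 5 after CD45 RIT (2 higher and 3 lower), beside 16.4 and 33.1% of all tested genes, with medians of 0.26, 0.54 and 0.03. Isca1 rose by 2.40 and 2.07 after IgG RIT and CD45 RIT, Iba57 rose by 2.27 after IgG RIT, and Iscu, the scaffold, rose by 1.24 after CD45 RIT. Lower were Fdx1 (-2.40) and Hspa9 (-1.37) after IgG RIT, and Lyrm4 (-2.43) after CD45 RIT. Lyrm4 was at 0.577 and 7.07 CPM in the CD45 RIT libraries. Of 13 regulators, 1, 3 and 2 were called after TBI, IgG RIT and CD45 RIT, all higher, beside 0.921, 5.75 and 14.5% of all tested genes called higher. Tal1, an erythroid transcription factor, rose by 1.52 and 2.42 after TBI and IgG RIT, Eif2ak1, the haem-regulated kinase, by 2.37 after IgG RIT, and Ireb2, an iron-responsive RNA-binding protein, by 1.51 after CD45 RIT. Medians were 0.60, 0.97 and 0.06. Of 9 genes of haem breakdown, binding and export, 1 was called after TBI, 5 after IgG RIT and 2 after CD45 RIT, beside 4.31, 16.4 and 33.1% of all tested genes. Abcg2, a porphyrin exporter, rose by 1.94 and 2.81 after TBI and IgG RIT, Hmox2, a haem oxygenase, was lower after IgG RIT (-1.36), and Flvcr1, a haem exporter, was lower after CD45 RIT (-4.91). Flvcr1 was at 0 and 1.44 CPM in the CD45 RIT libraries, so the size of its fall is uncertain. Hmox1, the inducible haem oxygenase, was named after its values were seen and rose by 4.71 ± 0.95 after CD45 RIT (adjusted p = 0.00288).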

How the data were processed

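RNA was prepared with a Qiagen micro kit and libraries with SMART-Seq v4 and Nextera XT, per the labels' protocols. The submitters' processing notes name STAR 2.7.7a, FastQC 0.11.9, edgeR 3.36.0 and the human build hg38, while the gene coordinates in the deposited table are those of mouse GRCm38. The authors deposited raw counts per gene for 14 libraries. Strand use in counting is not given in the sources used here.

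Counts were filtered (edgeR's filterByExpr, minimum count 10, minimum total 15), scaled by TMM and tested over all groups with edgeR 4.0.16 in R 4.3.3 (quasi-likelihood test, Benjamini-Hochberg threshold 0.05). The test was checked on simulated counts with the same spread in every group, which does not cover the wider spread between the CD45 RIT libraries. Errors of log2 changes are SE, and intervals and floors cover counting error only. RPKM used the principal transcript of GENCODE M21. Alternatives were DESeq2 1.42.0, other scaling, no filter, a replicate block, only the 2 groups compared, and each library left out. The term for library number, the fits without both CD45 RIT libraries and the tests of ratios were added after the data were seen.

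The genes and lists were chosen with earlier results of these data known. Genes named from a pathway list were its 2 largest called rises and 2 largest called falls, provided that average log2 CPM reached 3. Some genes that this rule names are not reported here. Marker lists were erythroid, globin, endothelial, stromal, macrophage, neutrophil and other blood cells. Globins summed to 6452 to 12362 CPM in untreated, 20458 to 156577 in TBI and 116673 to 121798 in IgG RIT libraries. Neutrophil markers summed to 9717 to 12146, 81.2 to 1141, 554 to 746 and 5.23 to 14.6 CPM in untreated, TBI, IgG RIT and CD45 RIT libraries, and markers of other blood cells to 1583 to 1838, 95.7 to 828, 103 to 245 and 105 to 149 CPM.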

Additional observations from a re-analysis of the deposited data

Results flagged for a closer look

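In 8 of 18 groups of 4 or 5 libraries that could be examined, TBI replicate 6 was farther from its nearest neighbour, relative to the range of the group, than Dixon's 95% limit for 5 samples. Chance gives about 1 in 20 such groups, and these 8 come from the same library. Its levels were 6880 CPM for Alas2, 4998 CPM for Fech, 2591 CPM for Cpox, 1965 CPM for Alad, 1623 CPM for Urod, 949 CPM for Ppox, 575 CPM for Uros and 541 CPM for Slc25a38. The gap took up 0.76 of the range for Uros and 0.913 for Alas2, with the others between. In this library the erythroid list summed to 25743 CPM and globins to 156577 CPM, the highest of the TBI group, and their part in these levels was not tested.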

How the results depend on the processing

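Over the 14 fits that each left out a library, calls after TBI ranged from 422 to 2803 genes and 1 to 8 haem genes, after IgG RIT from 1775 to 7364 and 6 to 9, and after CD45 RIT from 5840 to 11346 and 2 to 5. The ranges were 6359 to 12085 and 1 to 7 for CD45 RIT against IgG RIT, 6981 to 12029 and 0 to 6 for CD45 RIT against TBI, and 2 to 2144 and 0 to 4 for IgG RIT against TBI. With all libraries the counts were 926, 3536, 7116, 8108, 8308 and 52 genes. Log2 changes whose sign turned are given by their lowest and highest value over these fits. For CD45 RIT against untreated they were -0.74 and 1.48 in Urod, -2.43 and 1.07 in Cpox, -11.13 and 0.42 in Alad, -14.52 and 0.69 in Uros, and -14.74 and 0.50 in Slc25a38, the lower without CD45 RIT replicate 1 and the higher without replicate 2. Fitted values against a library at 0 to 5 counts depend on the prior count and are no bound. Against IgG RIT they were -1.32 and 0.80 in Alas2 and -1.59 and 0.43 in Fech by the same libraries, with Fech at 0.08 without IgG RIT replicate 1. Against TBI they were -1.99 and 0.080 in Urod, -0.94 and 0.15 in Ppox, and -0.65 and 1.69 in Fech, the lower without CD45 RIT replicate 1. The higher came without CD45 RIT replicate 2 in Urod and without TBI replicate 6 in Ppox and Fech.

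Same-numbered libraries deviated from their group means with correlations of -0.0896 to 0.139. The labels do not say whether replicate numbers pair the libraries. These values cannot decide it, because deviations from the mean of a small group are tied to each other. With the replicate block, calls were 38 genes and 0 haem genes after TBI, 2063 genes after IgG RIT, 4062 after CD45 RIT, 5098 for CD45 RIT against IgG RIT, and 3756 with 2 haem genes against TBI. Under the block Cpox turned to -0.036 after CD45 RIT, and Urod and Ppox to 0.13 and 0.40 against TBI.

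With only the 2 groups compared, calls were 3251 genes and 8 haem genes after TBI, 6662 after IgG RIT, 3995 after CD45 RIT, 2217 with 0 haem genes for CD45 RIT against IgG RIT, and 850 for IgG RIT against TBI. DESeq2 called 2485 genes after TBI, 5942 after IgG RIT, 0 haem genes after CD45 RIT, 2 for CD45 RIT against TBI, and 2085 genes with 1 haem gene for IgG RIT against TBI; it gave Alas2 and Fech no adjusted p. Without scaling, Cpox turned to -0.52 after CD45 RIT, CD45 RIT against TBI had 1 haem gene (1 also with RLE factors), and IgG RIT against TBI had 203 genes.

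With the library number term, calls were 19 genes and 0 haem genes after IgG RIT, 2458 and 0 after CD45 RIT, 4525 and 1 for CD45 RIT against TBI, and 0 genes for IgG RIT against TBI. After CD45 RIT it turned Alas1 (0.59), Urod (-0.87), Cpox (-0.85) and Ppox (-0.57), against TBI Alas2 (-0.023) and Fech (-0.57), and for IgG RIT against TBI Alas1 (1.13), Alas2 (-0.31), Uros (-0.020) and Fech (-0.51). Without both CD45 RIT libraries, calls were 3096 genes and 9 haem genes after TBI, 7340 genes after IgG RIT, and 2495 genes with 3 haem genes for IgG RIT against TBI. The cause of these changes was not tested. Without both CD45 RIT libraries the SE of the change after TBI went from 1.02 to 0.28 in Slc25a38 and from 1.02 to 0.30 in Alad. A fit that leaves out a CD45 RIT library has a single library in that group.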
